A study of Mus musculus with 12 samples.

Results

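Ldb3 and 9 other genes of striated muscle (Des, Acta1, Actn2, Ckm, Tnnt3, Tnnc2, Myl1, Mylpf and Mb) were followed in 12 salivary tumors of MMTV-ras mice. Every probe set whose only annotated gene symbol was one of these 10 was taken, which gave 14 of the 22626 probe sets tested, 3 for Ldb3 and 11 for the other 9 genes. Ldb3 was chosen by its high level in the tumors with wild-type p53, so its differences from those tumors are given as a description, with no test. The other genes were picked to look for muscle in the tissue. Each tumor was hybridized to 1 Affymetrix mouse expression array, and all values below are RMA levels on a log2 scale, on which a difference of 1 is a doubling. All mice carried the ras oncogene under the MMTV promoter, which is active in secretory epithelium, on a mixed Balb/c and C57BL/6 background. The study used mainly males, and the sex and age of each tumor-bearing mouse are not given. The paper reports that salivary tumors arose earlier in p53-/- and p53R172H/R172H mice than in p53+/+ mice. The MT tumors came from MMTV-ras/p53R172H/R172H mice, which have only a mutant p53, the KO tumors from MMTV-ras/p53-/- mice, which have no p53, and the WT tumors from MMTV-ras/p53+/+ mice, with 4 tumors for each genotype. The tumors are numbered within a genotype, but nothing in the sources ties a tumor to a mouse. A p-value here therefore rests on tumor-to-tumor spread alone, part of which may be technical.

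The sarcomere is the contractile unit of striated muscle. Actin thin filaments are anchored at the Z-disc by alpha-actinin and slide along myosin thick filaments once calcium binds the troponin complex. Ldb3, also called ZASP or Cypher, is a Z-disc protein with a PDZ and LIM domains that binds alpha-actinin, and is known mainly from skeletal and cardiac muscle. Salivary glands have no striated muscle of their own, but skeletal muscle and the contractile myoepithelial cells of the glands lie next to the secretory tissue.

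The sequences before the annotated transcription starts of Ldb3 and of 3 sarcomere genes whose levels stood highest together in a single tumor are shown first. They are credited to RefSeq (build GRCm38.p6), whose promoter table held 9 of the 10 genes. Each run is the 250 bases before the start, 5′ to 3′ on the strand of the gene, and capitals mark matches to the CArG box, the motif of serum response factor, and to the E-box CANNTG, the motif of the myogenic factors. The windows lie at chr14:34588682-34588931 on the minus strand for Ldb3, chr8:123894776-123895025 on the minus strand for Acta1, chr2:164779735-164779984 on the minus strand for Tnnc2 and chr1:66945057-66945306 on the minus strand for Myl1.
Ldb3: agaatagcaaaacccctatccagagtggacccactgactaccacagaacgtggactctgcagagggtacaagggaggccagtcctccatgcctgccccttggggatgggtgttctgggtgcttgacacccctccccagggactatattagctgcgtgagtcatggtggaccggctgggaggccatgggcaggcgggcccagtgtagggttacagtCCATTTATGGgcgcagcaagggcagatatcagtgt
Acta1: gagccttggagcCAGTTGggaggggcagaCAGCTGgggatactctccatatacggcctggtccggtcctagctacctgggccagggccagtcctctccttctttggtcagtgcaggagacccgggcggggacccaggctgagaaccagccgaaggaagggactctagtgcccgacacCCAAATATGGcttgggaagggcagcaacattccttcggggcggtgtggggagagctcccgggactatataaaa
Tnnc2: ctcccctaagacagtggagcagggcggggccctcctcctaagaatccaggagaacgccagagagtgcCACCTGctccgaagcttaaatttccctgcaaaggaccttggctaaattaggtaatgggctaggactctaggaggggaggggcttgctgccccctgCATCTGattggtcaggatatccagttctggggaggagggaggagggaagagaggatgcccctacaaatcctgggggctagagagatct
Myl1: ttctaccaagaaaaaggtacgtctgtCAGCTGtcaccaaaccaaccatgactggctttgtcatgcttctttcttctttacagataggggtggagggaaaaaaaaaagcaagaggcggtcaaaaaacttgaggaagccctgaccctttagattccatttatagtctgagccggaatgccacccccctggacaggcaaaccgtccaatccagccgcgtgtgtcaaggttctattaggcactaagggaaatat
The Ldb3 window held 1 CArG box, CCATTTATGG, and no E-box. RefSeq has 2 start entries for Ldb3, and this box began 35 bases before the start used here and 109 bases before the other. Acta1 held 1 CArG box, CCAAATATGG, that began 73 bases before the start, and 2 E-boxes. Tnnc2 held 2 E-boxes and Myl1 held 1, and neither held a CArG box. Both strands were searched, and no CArG box overlapped an E-box. Of 32851 mouse promoter windows of 250 bases, 1.47% held a CArG box and 66.2% an E-box. The p53 half-site motif was held by 7.13% of all windows and by none of those of the 9 genes, which says only that these letters are not in these windows.

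The tissue was checked against markers. The mean level of the epithelial markers (13 probe sets of 8 genes) was 10.77 to 11.36 in MT tumors, 11.05 to 11.42 in KO tumors and 9.73 to 11.22 in WT tumors. The salivary markers were mixed. The secretory protein gene Bpifa2 was at 11.08 or above in each of the 12 tumors. The secretory protein gene Dcpp1 was at 6.12 to 8.13 in MT, 5.90 to 6.69 in KO and 8.27 to 11.09 in WT tumors. Prpmp5, another such gene, was at 7.56 to 10.83, 5.45 to 7.75 and 11.49 to 12.03 in the same order. At its brighter probe set, the salivary marker Pip read 8.32 to 9.58, 9.56 to 11.39 and 7.65 to 10.05 in that order. By the difference of means, 3 of the 14 salivary probe sets were higher and 11 lower in KO than in WT tumors. The muscle probe sets were dim. Each of the 14 probe sets was above the median of all values, 6.93, in fewer than 4 of the 12 tumors, which was the case for 46.1% of all probe sets. A dim probe set compresses differences, since part of its level is background. Over all 22626 probe sets, 438 were higher and 597 lower in KO than in WT tumors, 40 were higher and 43 lower in MT than in WT tumors, and 2 were higher in MT than in KO tumors, at an adjusted p under 0.05 (limma, Benjamini-Hochberg). The p53 gene itself was not analysed here. Cdkn1a, a well-known p53 target, was at 6.43, 7.64, 6.66 and 6.71 in MT1 to MT4 and at 7.01, 6.62, 6.68 and 7.20 in KO1 to KO4, against 7.73, 8.82, 8.55 and 8.22 in WT1 to WT4 (probe set 1424638_at), with no overlap of the WT tumors with the others, while at its other probe set (1421679_a_at) the groups overlapped.

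Ldb3 was measured by 3 probe sets, and they did not show the same pattern. Probe set 1451999_at read 5.61, 5.55, 5.64 and 5.55 in MT1 to MT4 and 5.42, 5.43, 5.56 and 5.61 in KO1 to KO4, against 6.86, 6.44, 7.03 and 7.10 in WT1 to WT4. Every WT tumor lay above every tumor of the other genotypes. The mean was 5.59 ± 0.04 in MT, 5.50 ± 0.09 in KO and 6.86 ± 0.30 in WT tumors (SD, n = 4 each). The difference was -1.27 for MT minus WT and -1.36 for KO minus WT (SE 0.13 each), a 2.41-fold and a 2.56-fold lower signal.

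The second probe set, 1433783_at, gave a wider gap and 1 WT tumor apart from its group. It read 4.16, 3.92, 3.86 and 3.76 in MT1 to MT4 and 3.65, 3.87, 3.76 and 4.19 in KO1 to KO4, against 7.0, 4.78, 6.98 and 7.10 in WT1 to WT4. The groups did not overlap, but WT2 was closer to the MT and KO tumors than to the other 3 WT tumors. The difference was -2.54 for MT minus WT and -2.60 for KO minus WT (SE 0.43 each), which is 5.83-fold and 6.05-fold lower. Without WT2 these were -3.10 and -3.16. WT2 was also the lowest WT tumor for 1451999_at, at 6.44, above the highest MT tumor at 5.64. The SD of the 4 WT tumors at 1433783_at was 1.12, with the other 3 at 6.98 to 7.10.

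The remaining Ldb3 probe set, 1416752_at, was flat. It read 5.31 to 5.49 in MT tumors, 5.18 to 5.34 in KO tumors and 5.21 to 5.42 in WT tumors, and the ranges overlapped. Its difference was 0.04 for MT minus WT and -0.07 for KO minus WT (SE 0.09 each). The 3 probe sets are directed at different stretches of the gene's transcripts, and which transcript forms each one reads was not examined here.

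**Figure D1:**
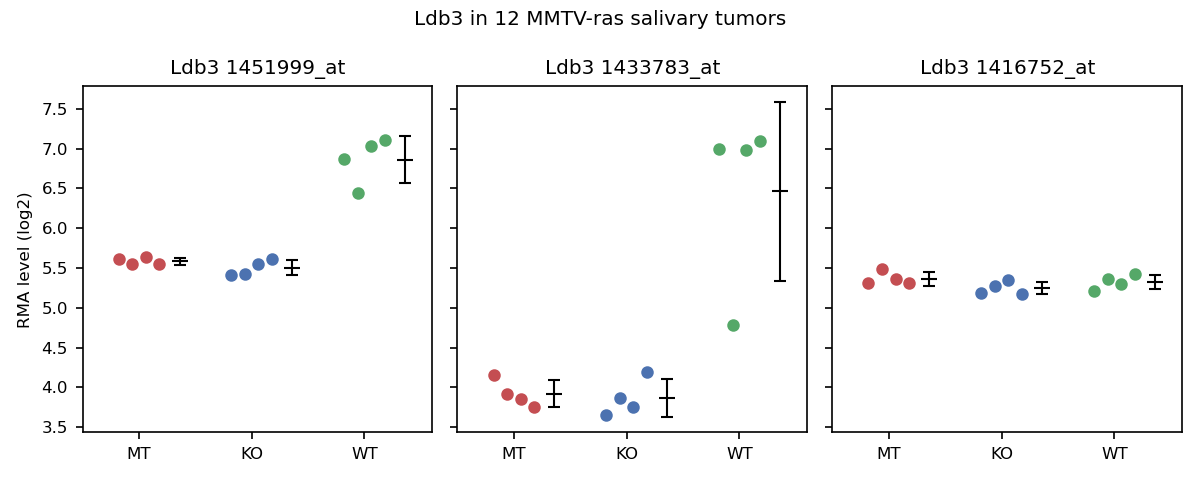
RMA level (log2) of the 3 Ldb3 probe sets, with 1 point per tumor in MT, KO and WT order and the mean ± SD (n = 4) in black beside each genotype. For 1451999_at and 1433783_at the 4 WT tumors lie above all MT and KO tumors, with WT2 at 4.78 for 1433783_at, and for 1416752_at all 12 tumors lie between 5.18 and 5.49.

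MT and KO tumors were compared for Ldb3 by a test, since that contrast did not choose the gene. MT minus KO was 0.08 for 1451999_at (95% interval -0.21 to 0.38, adjusted p = 0.905), 0.05 for 1433783_at (95% interval -0.88 to 0.99, adjusted p = 0.986) and 0.12 for 1416752_at (95% interval -0.08 to 0.31, adjusted p = 0.743), by limma over all 22626 probe sets. None passed, and none of the 3 reached an unadjusted p of 0.05. For 1433783_at the interval still allows a difference near a doubling in either direction.

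Other measures that differed in part between WT and the other tumors are given beside the Ldb3 levels. The mean level of the salivary acinar markers (14 probe sets of 9 genes) was 7.41 to 7.83 in MT tumors, 7.09 to 8.23 in KO tumors and 8.22 to 10.36 in WT tumors. Of the 14, 2 were called lower in KO than in WT tumors (Dcpp1 and Prpmp5, secreted salivary proteins). None was called between MT and WT tumors. Over all probe sets, the share called lower in KO than in WT tumors was 2.64%. The 18S ribosomal RNA control read 6.41, 6.59, 6.58 and 7.66 in MT1 to MT4 and 7.36 to 8.03 in KO tumors, against 9.11, 8.90, 9.33 and 7.51 in WT1 to WT4. WT1, WT2 and WT3 were above every MT and KO tumor for 18S, and WT4 was not. WT4, with the lowest 18S signal of the WT tumors, had the highest Ldb3 at both probe sets that differed, 7.10 each. The part of the 18S difference in the Ldb3 levels was not tested. The bacterial poly-A controls were at 10.38 to 10.56 in MT1, MT2 and MT3 and at 3.98 to 4.23 in the other 9 tumors. MT4, which shares the low controls with the KO and WT tumors, read 5.55 and 3.76 for Ldb3, within the range of the other MT tumors for 1451999_at and below it for 1433783_at. The RNA came from frozen tumor sections, and the methods state that samples were selected under the microscope for largely homogeneous tumor mass. In such sections, fewer cells of a type and less RNA per cell cannot be told apart.

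Among all probe sets with a single symbol, the 5 genes whose pattern over the 12 tumors was most like Ldb3 1451999_at were Ddo, Stx18, Zmat3, St3gal6 and Polr2e, with Pearson's r of 0.96 for Ddo and 0.95 for the other 4. None of them is a muscle structural gene. Ddo encodes D-aspartate oxidase, Stx18 a syntaxin of the endoplasmic reticulum, St3gal6 a sialyltransferase and Polr2e a subunit shared by the RNA polymerases. Zmat3 is a zinc finger gene known as a direct p53 target. Since Ldb3 separates WT from the other tumors, any gene that does so scores high here, and the 12 values fall into 2 clusters. With genotype means removed, r was 0.88 for Ddo, 0.74 for Stx18, 0.56 for St3gal6, 0.51 for Polr2e and 0.50 for Zmat3. These are descriptions over 12 tumors, and the gene list was picked for likeness.

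Ddo ranked the WT tumors in the same order as Ldb3 1451999_at, but not the MT or the KO tumors. It read 4.97 to 5.16 in MT tumors and 4.99 to 5.39 in KO tumors, against 6.53, 5.54, 6.84 and 6.88 in WT1 to WT4, so that WT2 was again the lowest WT tumor. St3gal6 had the largest span of the 5, with 4.85 to 5.95 in MT tumors, 5.15 to 5.97 in KO tumors and 7.49 to 10.13 in WT tumors, where WT2 was once more the lowest. Zmat3 read 6.78 to 7.13 in MT tumors and 6.63 to 7.01 in KO tumors, against 8.10, 7.66, 8.42 and 7.84 in WT1 to WT4.

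**Figure D2:**
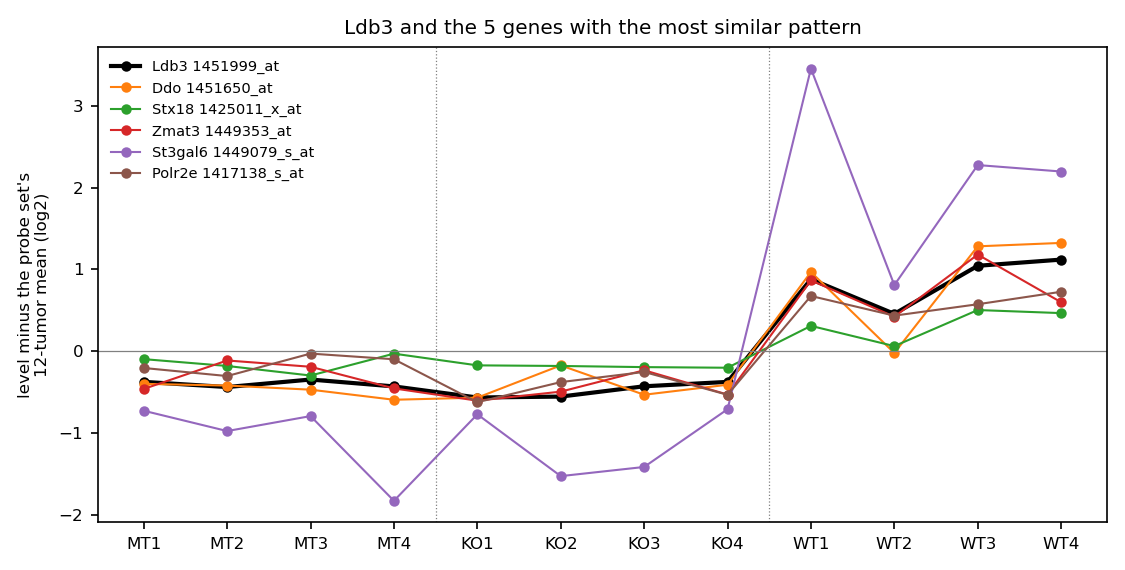
Level of Ldb3 1451999_at (black) and of the 5 genes with the highest Pearson's r to it, each minus its own mean over the 12 tumors (log2), for each tumor in MT, KO and WT order. The 8 MT and KO tumors lie below 0 and the WT tumors above it for Ldb3, and WT2 is the lowest WT tumor for each of the 6 probe sets drawn.

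The genes next to Ldb3 on mouse chromosome 14 gave no call. The nearest measured neighbors were Bmpr1a, a BMP receptor, and Sncg, a synuclein, on one side, and Opn4, the photopigment melanopsin, and Grid1, a glutamate receptor, on the other. They were read by 8 probe sets, none of which passed in any comparison. Sncg came nearest, at 4.47 to 4.59 in MT tumors and 4.12 to 4.48 in KO tumors against 4.44 to 5.31 in WT tumors, with KO minus WT of -0.59 ± 0.17 (SE, limma, adjusted p = 0.0711). The 5 Bmpr1a probe sets had KO minus WT between -0.19 and 0.15.

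The muscle genes were then read by their place in the sarcomere, beginning with the thin filament. Acta1 encodes the actin of skeletal muscle thin filaments. Its probe set read 7.63, 4.80, 4.80 and 5.03 in MT1 to MT4 and 4.90, 5.11, 5.13 and 4.67 in KO1 to KO4, against 5.16, 5.33, 5.18 and 5.73 in WT1 to WT4. MT1 stood 1.90 above every other tumor, and the KO tumors all lay below the WT tumors. KO minus WT was -0.40 ± 0.52 and MT minus WT 0.22 ± 0.52 (SE, limma), with adjusted p of 0.683 and 0.854. Without MT1, MT minus WT was -0.47.

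Tnnc2, the calcium-binding troponin C of fast fibers, had the same outlying tumor. It read 6.45, 4.81, 4.77 and 4.72 in MT1 to MT4 and 4.69, 4.72, 4.68 and 4.79 in KO1 to KO4, against 5.22, 5.27, 4.95 and 4.92 in WT1 to WT4. Apart from MT1, all MT and KO tumors lay below the WT tumors. KO minus WT was -0.37 ± 0.32 (SE, limma, adjusted p = 0.519). With MT1 left out of the fit the same difference of -0.37 had an SE of 0.11 and an adjusted p of 0.083, which still missed the threshold.

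Tnnt3, the tropomyosin-binding troponin T of fast fibers, read 5.31, 4.63, 4.70 and 4.69 in MT1 to MT4 and 4.54, 4.49, 4.53 and 4.70 in KO1 to KO4, against 4.92, 5.26, 4.85 and 4.76 in WT1 to WT4. KO and WT tumors did not overlap, and MT1 and WT2 were the highest tumors of their genotypes. KO minus WT was -0.38 ± 0.16 (SE, 95% interval -0.73 to -0.03), with an adjusted p of 0.175 over all probe sets (limma). It was 1 of 11 at an unadjusted p under 0.05, beside 23.9% of all probe sets. Acta1, Tnnt3 and Tnnc2 were the 3 of 11 probe sets with no overlap between KO and WT tumors, each lower in KO, beside 8.37% of all probe sets lower in KO without overlap.

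The thick filament was represented by the myosin light chains Myl1 and Mylpf, the essential and the regulatory light chain of fast fibers. Myl1 read 7.05, 5.47, 5.47 and 5.12 in MT1 to MT4 and 5.39, 5.40, 5.30 and 5.08 in KO1 to KO4, against 5.30, 5.38, 5.36 and 5.73 in WT1 to WT4. Without MT1 the ranges of the 3 genotypes overlapped. Mylpf read 6.72, 5.29, 5.65 and 5.68 in MT1 to MT4 and 5.66, 6.27, 5.72 and 5.75 in KO1 to KO4, against 5.83, 5.6, 5.61 and 5.49 in WT1 to WT4. Here too MT1 was highest, with KO2 next, and the groups overlapped. No difference passed for either gene, with adjusted p between 0.614 and 0.821 for Myl1 and between 0.647 and 0.994 for Mylpf (limma).

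At the Z-disc, neither Actn2 nor Des differed between genotypes by the test. Actn2, the alpha-actinin of striated muscle that Ldb3 binds, read 4.65, 5.06, 4.69 and 4.38 in MT1 to MT4 and 4.60, 4.83, 4.58 and 4.54 in KO1 to KO4, against 4.72, 4.95, 4.84 and 4.82 in WT1 to WT4. MT1 was not raised for Actn2. Des, the intermediate filament protein that links Z-discs, read 6.60 to 6.75 in MT tumors, 6.57 to 6.99 in KO tumors and 6.71 to 6.85 in WT tumors at 1426731_at, and 4.94 to 5.26, 4.73 to 5.08 and 4.79 to 5.15 in the same order at 1426732_at. All ranges overlapped, and MT minus WT was -0.13 and 0.12 for the 2 Des probe sets, of opposite sign.

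For the energy genes another tumor was the highest. Ckm, the creatine kinase of muscle, read 6.79, 6.22, 6.38 and 6.05 in MT1 to MT4 and 6.19, 6.19, 6.26 and 6.14 in KO1 to KO4, against 6.21, 6.83, 6.45 and 6.31 in WT1 to WT4. Mb, the oxygen-binding myoglobin, read 6.28, 6.72, 6.51 and 6.19 in MT1 to MT4 and 6.79, 7.19, 6.29 and 6.73 in KO1 to KO4, against 6.38, 7.57, 6.50 and 6.90 in WT1 to WT4 at 1451203_at. WT2 was the highest of the 12 tumors for Ckm and for both Mb probe sets, the other Mb probe set being at 7.06 in WT2 and at 6.43 to 6.87 elsewhere. MT1 was close behind WT2 for Ckm, and near the bottom for Mb at 1451203_at.

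**Figure D3:**
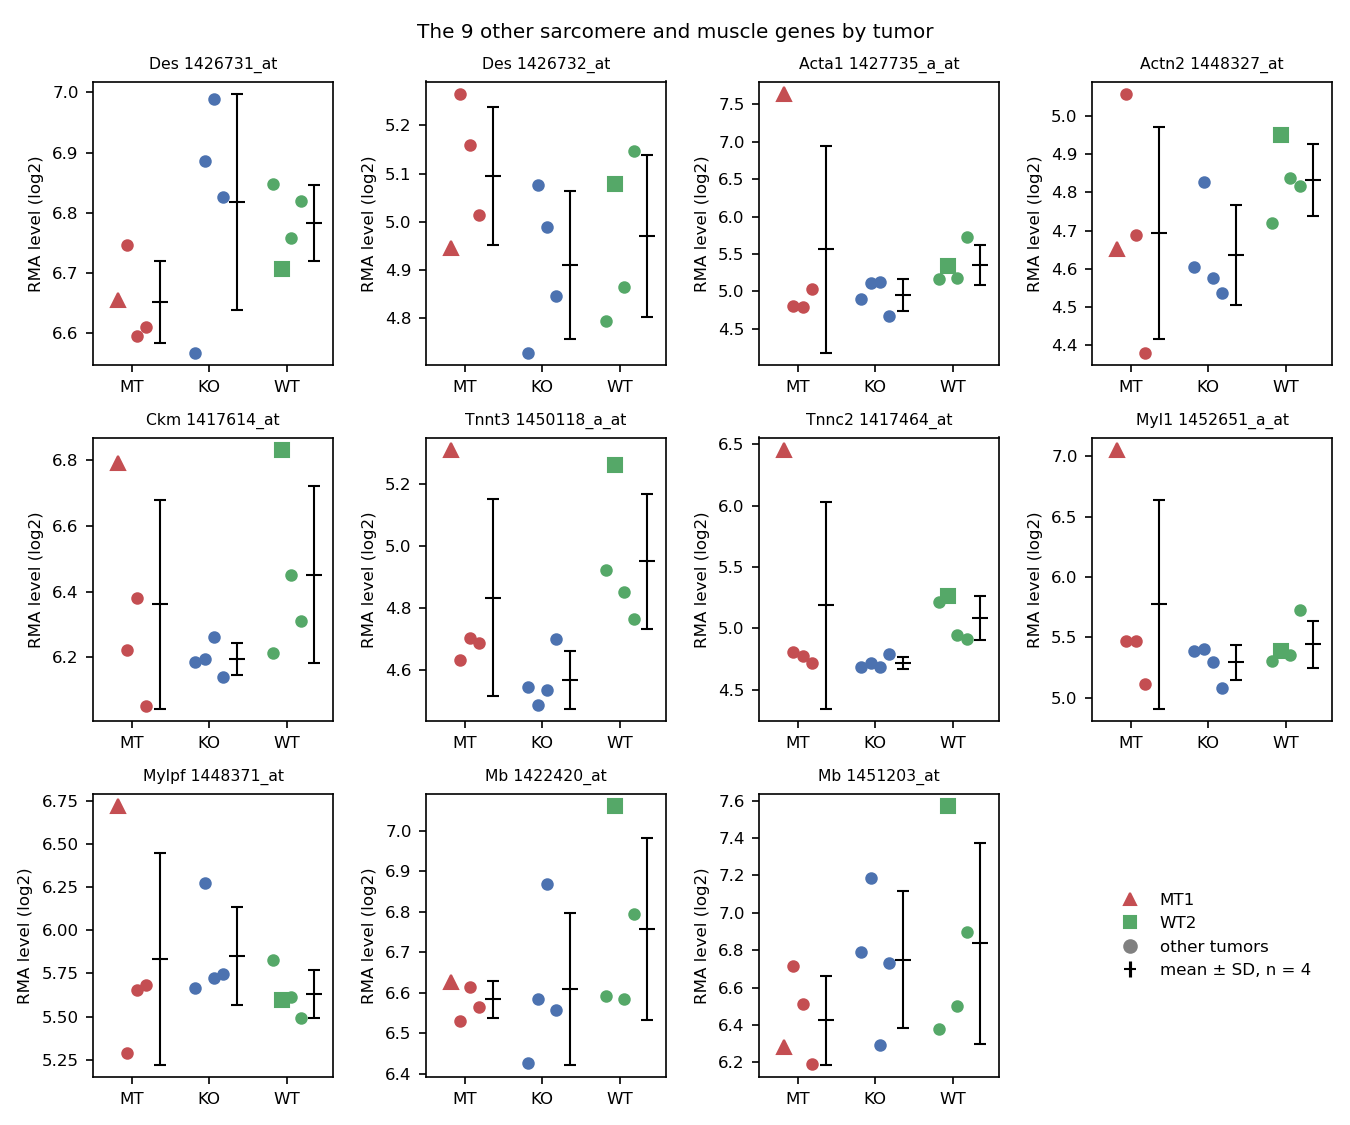
RMA level (log2, axis range set for each panel) of the 11 probe sets of the 9 other genes, with 1 point per tumor in MT, KO and WT order and the mean ± SD (n = 4) in black. MT1 (triangle) is highest for Acta1, Tnnt3, Tnnc2, Myl1 and Mylpf, and WT2 (square) for Ckm and both Mb probe sets.

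None of the 11 probe sets of the 9 genes was called between any pair of genotypes by limma at an adjusted p under 0.05. The shares called over all probe sets were 1.94% higher and 2.64% lower for KO minus WT, 0.177% higher and 0.19% lower for MT minus WT, and 0.00884% higher and 0% lower for MT minus KO, so with 11 probe sets a count of 0 is near that background. At an unadjusted p under 0.05 there was 1 for KO minus WT (Tnnt3) and 0 for the other pairs, beside 23.9% of all probe sets for KO minus WT, 19.4% for MT minus WT and 9.58% for MT minus KO, so the members were not above that background. At the same unadjusted level the methods' t-test gave 2 for KO minus WT (Tnnc2 and Tnnt3), 1 for MT minus WT and 0 for MT minus KO, with none left after adjustment. For KO minus WT, 9 of the 11 differences were below 0 with a median of -0.15, beside -0.02 over all probe sets. For MT minus WT, 6 of 11 were below 0 with a median of -0.09, beside -0.01. Without the dim probe sets, the median over the rest was 0.07 for KO minus WT and 0.05 for MT minus WT. The median of the dim ones, to which all 11 belong, was therefore below -0.02 and -0.01. The intervals show how much could be missed, from -0.19 to 0.26 for Des 1426731_at to -1.54 to 0.74 for Acta1, both for KO minus WT (95%).

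**Figure D4:**
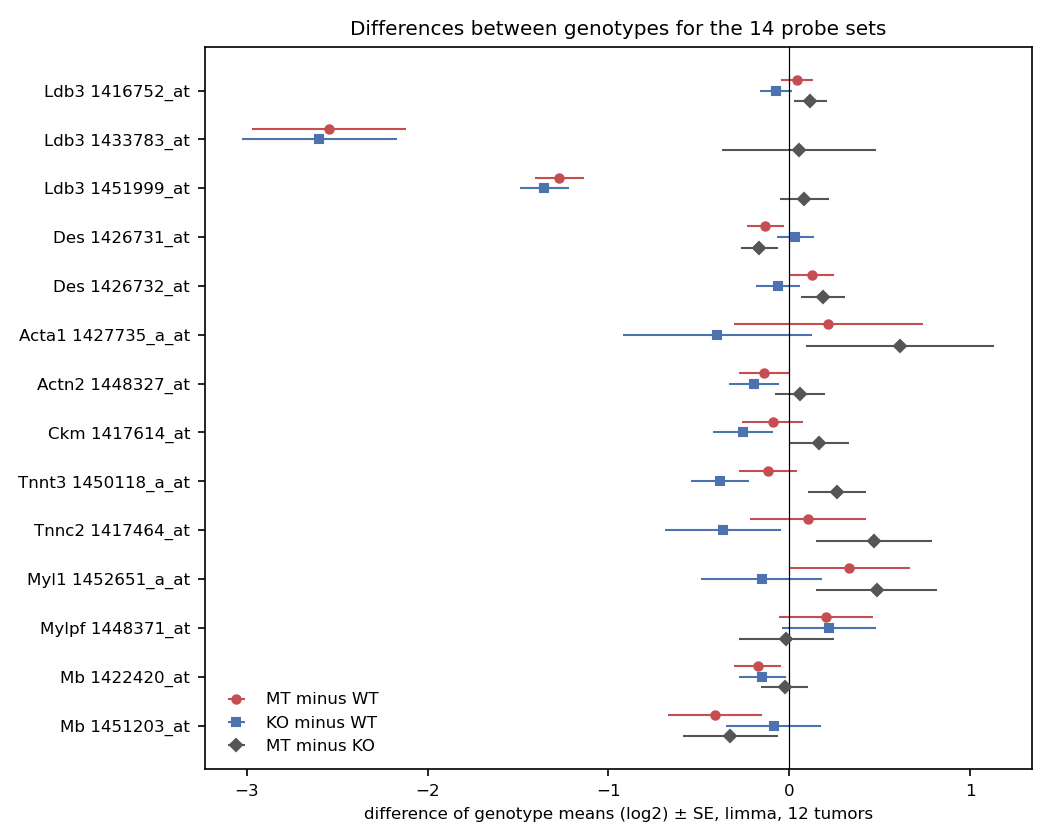
Difference of genotype means (log2) ± SE from the limma fit over 12 tumors, for the 14 probe sets and the 3 pairs of genotypes. The Ldb3 probe sets 1451999_at and 1433783_at lie at -1.27 to -2.60 against WT, given as a description. The other 12 probe sets lie between -0.41 and 0.61.

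MT1 was therefore looked at across all genes. It stood more than 1 above every other tumor for 22 of 22626 probe sets, or 0.0972%, a limit set after the values were seen, and 3 of the 14 (Acta1, Tnnc2 and Myl1) were among them. No other tumor stood apart in this way for any of the 14. Also among the 22 were Myh1 and Myh4, myosin heavy chains of fast skeletal fibers, which were named after their values were seen. Myh1 read 5.80 in MT1 and 3.63 to 4.25 in the other 11 tumors, and Myh4 read 5.52 in MT1 and 3.90 to 4.38 in the others. The 22 were led by 2 probe sets of Dhh, the ligand Desert hedgehog, at 9.60 and 8.57 in MT1 against at most 5.73 and 5.46 elsewhere. The 10 pairs among Acta1, Tnnt3, Tnnc2, Myl1 and Mylpf had Pearson's r from 0.36 to 0.95 over the 12 tumors and from -0.29 to 0.92 over the 11 without MT1, as a description.

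Within genotypes, no correlation of Ldb3 with these genes passed. In MT1, with the highest Acta1, Tnnt3, Tnnc2, Myl1 and Mylpf of all tumors, Ldb3 1451999_at was 5.61 beside 5.55 to 5.64 in the other MT tumors, and 1433783_at was 4.16 beside 3.76 to 3.92. In WT2, with the highest Ckm and Mb, Ldb3 was the lowest of the WT tumors at 1451999_at and 1433783_at, but not at 1416752_at. With genotype means removed, Pearson's r of Ldb3 1451999_at with the other 9 genes ran from -0.64 for Mb to 0.30 for Des, and no r or Spearman's rho passed (exact permutation test within genotypes, 2-sided, 13824 orders, smallest adjusted p over the 9 genes 0.530 for r and 0.764 for rho). For Mb, r was -0.64 (exact permutation p = 0.141) and rho was -0.50 (exact permutation p = 0.187). This r rested on WT2, without which it was -0.03. Without the 2 tumors farthest from the median of Ldb3, WT2 and WT4, r was -0.33 for Mb, and the r of Ckm was 0.36, against -0.43 with all 12 tumors. With 4 tumors a genotype, these correlations were measured with little precision. With genotype means kept, rho over the 12 tumors was 0.77 for Tnnt3, 0.68 for Tnnc2, 0.60 for Ckm and 0.56 for Acta1. It was -0.24 to 0.28 for the others, while r ran from -0.28 for Mylpf to 0.39 for Tnnt3. These pooled values hold the genotype difference by which Ldb3 was chosen, so they are a description.

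**Figure D5:**
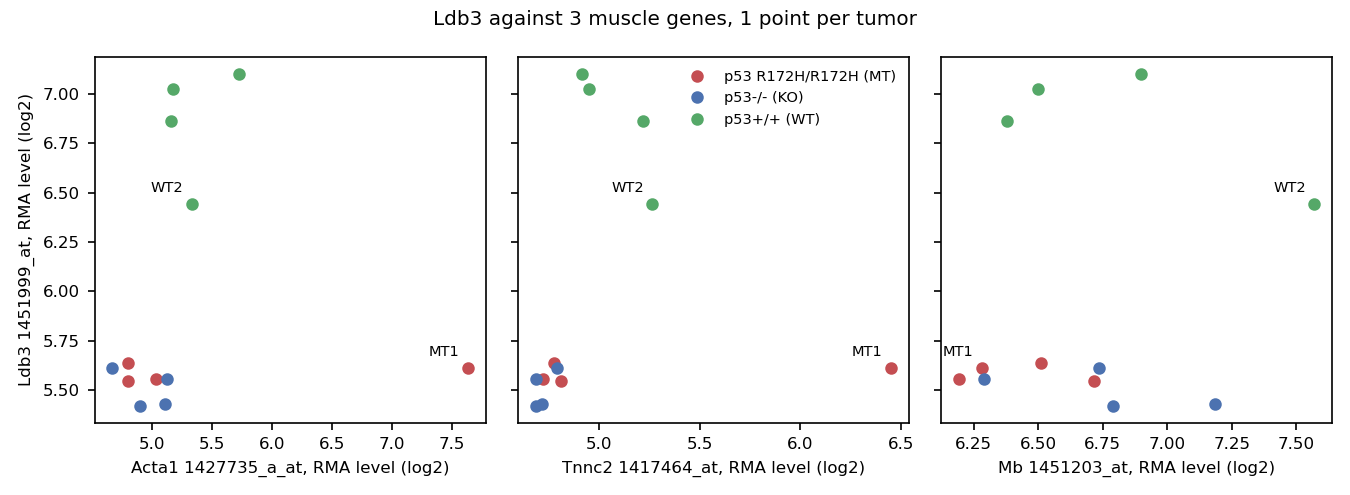
Ldb3 1451999_at against Acta1, Tnnc2 and Mb (RMA levels, log2), 1 point per tumor, colored by genotype. MT1 lies far to the right for Acta1 and Tnnc2 at an Ldb3 of 5.61, and WT2 lies farthest right for Mb at the lowest Ldb3 of the WT tumors, 6.44.

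Further sarcomere genes held some that differed between KO and WT tumors. Of 49 probe sets of 33 other sarcomere genes, 4 were lower and 1 higher in KO than in WT tumors, beside shares of 2.64% and 1.94% over all probe sets, and none was called for MT minus WT or MT minus KO. The median difference of the list was -0.17 for KO minus WT and -0.15 for MT minus WT, beside -0.02 and -0.01. Only 9 of the 49 were above the median of all values in at least 4 tumors. Over all probe sets that were, the medians were 0.07 and 0.05, so the dim ones lay lower. WT2 was the highest of the 12 tumors for 24 of these 49 probe sets, beside 3455 of all 22626, and MT1 for 5. On the WT2 array the 10th percentile of all levels, 4.52, was the highest of the 12, and the median, 6.85, the lowest. The part of this in the high WT2 readings here and for Ckm and Mb was not tested.

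Speg, a kinase of the muscle membrane system at the triad, had the smallest p of this list. Its probe set 1451886_at read 6.94, 6.67, 6.76 and 6.69 in MT1 to MT4 and 6.50, 6.42, 6.31 and 6.55 in KO1 to KO4, against 7.18, 7.80, 7.59 and 7.12 in WT1 to WT4. No MT or KO tumor reached a WT tumor. KO minus WT was -0.98 ± 0.15 (SE, limma, adjusted p = 0.0113) and MT minus WT was -0.66 ± 0.15 (SE, limma, adjusted p = 0.0732), and the other 3 Speg probe sets were not called. The lists were chosen with earlier results of these same tumors known, so the direction of this probe set is no independent evidence.

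The other 3 that fell in KO tumors were a light chain, a troponin and a myosin heavy chain. Myl3, a myosin light chain of slow and cardiac muscle, read 4.81 to 5.14 in KO tumors against 5.52 to 6.32 in WT tumors at 1427768_s_at (KO minus WT -0.90 ± 0.17, SE, limma, adjusted p = 0.0197), while its other 2 probe sets were not called. Tnni2, the inhibitory troponin I of fast fibers, read 5.38 to 5.56 in KO tumors against 5.98 to 6.33 in WT tumors at 1416889_at (-0.73 ± 0.16, SE, limma, adjusted p = 0.0305), and was at 6.27 in MT1 and 5.53 to 5.62 in the other MT tumors. The other 2 Tnni2 probe sets gave -0.27 and -0.28 and were not called. Myh3, the embryonic myosin heavy chain, read 4.67 to 5.0 in KO tumors against 5.05 to 5.6 in WT tumors (-0.58 ± 0.13, limma, adjusted p = 0.0337). The 1 that rose was Tpm1 at 1456623_at, an actin-binding tropomyosin also made outside muscle, named after its values were seen, at 7.5 to 9.75 in KO tumors against 6.36 to 7.14 in WT tumors.

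The calcium and energy genes of muscle gave 1 call in each direction for KO minus WT among 34 probe sets of 23 genes, and 1 higher for MT minus WT. The shares over all probe sets were 1.94% higher and 2.64% lower for KO minus WT, and 0.177% higher for MT minus WT. Chrnb1, a subunit of the acetylcholine receptor at the neuromuscular junction, ran opposite to Ldb3. It read 7.71, 7.97, 7.91 and 8.40 in MT1 to MT4 and 8.48, 7.38, 8.30 and 8.68 in KO1 to KO4, against 4.72, 5.49, 4.87 and 6.48 in WT1 to WT4, with no overlap. KO minus WT was 2.82 ± 0.38 (adjusted p = 0.00768) and MT minus WT 2.61 ± 0.38 (adjusted p = 0.0246), by limma with SE. Chrnb1 lies on chromosome 11, the chromosome of the altered p53 gene, with 15 protein-coding genes between them, and the part of this position in the difference was not tested. Cox6a2, a heart and muscle subunit of cytochrome c oxidase, read 6.35 to 6.50 in KO tumors against 6.59 to 7.11 in WT tumors (-0.49 ± 0.12, SE, limma, adjusted p = 0.0472).

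Among the relatives of Ldb3 with a PDZ and LIM domains, Pdlim7 was the member that differed. Pdlim7, known as enigma, read 9.30, 7.83, 8.54 and 7.51 in MT1 to MT4 and 9.0, 9.24, 8.86 and 9.18 in KO1 to KO4, against 6.12, 6.95, 6.46 and 6.59 in WT1 to WT4 at 1417959_at. No WT tumor reached an MT or KO tumor. KO minus WT was 2.54 ± 0.33 (SE, limma, adjusted p = 0.00675) and MT minus WT 1.77 ± 0.33 (SE, limma, adjusted p = 0.0516), and the second Pdlim7 probe set was called for KO minus WT as well, with a difference of 0.95. The direction was opposite to that of Ldb3.

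The other PDLIM genes gave no call at any of their 13 probe sets. Pdlim3, a Z-disc relative of Ldb3 that is also called ALP, read 8.05, 6.23, 6.61 and 7.04 in MT1 to MT4 and 6.67, 7.88, 6.37 and 6.30 in KO1 to KO4, against 5.82, 8.90, 6.50 and 6.52 in WT1 to WT4. It was highest in WT2 and MT1. Pdlim4 read 8.91 to 10.09 in MT tumors, 8.26 to 10.60 in KO tumors and 6.26 to 9.87 in WT tumors, with WT2 the highest WT tumor again. Pdlim1 read 8.93 to 10.02 in MT tumors, 9.31 to 11.57 in KO tumors and 9.43 to 10.31 in WT tumors at 1416554_at, Pdlim2 5.52 to 6.07 in MT tumors, 5.28 to 6.03 in KO tumors and 5.90 to 6.41 in WT tumors, and Pdlim5 8.75 to 9.73, 9.23 to 10.06 and 8.22 to 9.82 in the same order at 1427475_a_at. The other 2 Pdlim1 probe sets read 4.77 to 5.51 in MT tumors, 4.67 to 5.34 in KO tumors and 4.78 to 5.50 in WT tumors. The other 6 Pdlim5 probe sets read 4.73 to 8.67 in MT tumors, 4.86 to 8.75 in KO tumors and 4.69 to 9.23 in WT tumors, and WT4 was the highest tumor for 4 of them.

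Of the myogenic transcription factors, those that set up and maintain the muscle lineage gave no call. Over the 12 tumors Myf5 was at 3.29 to 3.70, Myf6 at 4.56 to 5.04 and Pax7 at 4.48 to 4.90. Myod1 was at 4.87 to 5.15 in MT tumors, 4.62 to 5.09 in KO tumors and 4.81 to 5.31 in WT tumors, and Myog at 5.52 to 5.58, 5.42 to 5.85 and 5.48 to 5.70 in the same order. In MT1, Myod1 was 4.87 and Myog 5.55. Of the 19 probe sets of 9 factors, 1 was called, beside 2.64% of all probe sets lower for KO minus WT. This was Srf at 1418255_s_at, which encodes the factor that binds the CArG box. It read 7.30 to 7.5 in MT tumors and 6.84 to 7.11 in KO tumors, against 7.37 to 7.99 in WT tumors, with KO minus WT of -0.71 ± 0.13 (SE, limma, adjusted p = 0.0191), while its other probe set gave -0.11 (limma, adjusted p = 0.764). Of the MEF2 factors, Mef2c stood apart in KO4 and WT1, at 8.76 and 8.0 against 5.88 to 6.48 elsewhere at 1421027_a_at, and no probe set of Mef2a, Mef2c or Mef2d was called. The other 4 Mef2c probe sets read 4.46 to 6.77 in MT tumors, 4.55 to 7.35 in KO tumors and 4.61 to 7.90 in WT tumors. The 5 Mef2a probe sets read 5.28 to 9.64 in MT tumors, 5.32 to 9.53 in KO tumors and 5.34 to 9.21 in WT tumors, and MT4 was the highest tumor for 4 of them. The 2 Mef2d probe sets read 7.87 to 8.68 in MT tumors, 7.95 to 9.31 in KO tumors and 7.39 to 8.44 in WT tumors.

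Cardiac and smooth muscle genes gave little. Of 13 probe sets of 9 cardiac genes, 1 was called, beside 2.64% of all probe sets lower for KO minus WT. This was Ryr2, the cardiac calcium release channel, at 1421126_at. Ryr2 read 4.22 to 4.43 in KO tumors against 4.51 to 4.84 in WT tumors (-0.41 ± 0.10, SE, limma, adjusted p = 0.0483). Its other probe set, 1450123_at, gave 0.03 (limma, adjusted p = 0.863). None of 19 probe sets of 13 smooth muscle and myoepithelial genes was called by limma in any comparison, with 4, 3 and 2 of the 19 at an unadjusted p under 0.05 for KO minus WT, MT minus WT and MT minus KO, beside the shares of 23.9%, 19.4% and 9.58% of all probe sets. The smallest p in that list were those of Krt5, a keratin of basal and myoepithelial cells, at 6.78 to 6.94 in MT tumors, 6.74 to 6.81 in KO tumors and 6.94 to 7.82 in WT tumors, and of Myh11, the smooth muscle myosin, at 5.67 to 6.04, 5.46 to 5.98 and 5.83 to 6.57 in the same order. Both were highest in WT2. The alpha-actinins made outside muscle and the LIM domain-binding factors (Actn1, Actn4, Ldb1 and Ldb2, 6 probe sets) gave no call either, with Actn1 at 7.24 to 8.37 in MT tumors, 6.51 to 7.45 in KO tumors and 6.71 to 7.33 in WT tumors at 1452415_at (MT minus WT 1.00 ± 0.27, SE, limma, adjusted p = 0.102).

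Markers of other cell types that lie near salivary epithelium are given for comparison. Of 9 adipocyte probe sets, 2 (both of Lpl, lipoprotein lipase) were lower in KO than in WT tumors, and of 10 macrophage probe sets, C1qb and Cd68 were lower at 1 each in KO tumors and C1qb in MT tumors. Rgs5 at 1420942_s_at and Pecam1 were lower in KO tumors among 13 probe sets of endothelium and pericytes, while the other Rgs5 probe sets were not called. By the difference of means, 10 of these 13 were lower and 3 higher in KO than in WT tumors. Over all probe sets, 2.64% were called lower for KO minus WT and 0.19% for MT minus WT. The adipocyte markers were mixed. The fat hormone genes Adipoq and Lep were at or below 5.26 in each of the 12 tumors, and Cidec at or below 4.64. At 1 probe set Fabp4 read 6.29 to 7.92 in MT, 6.97 to 7.60 in KO and 7.26 to 9.06 in WT tumors. Another was similar, at 6.55 to 8.02, 6.92 to 7.72 and 7.42 to 9.04 in the same order. The other Fabp4 probe sets were at or below 4.88. Lpl at 1415904_at read 6.57 to 7.85, 6.93 to 7.39 and 8.0 to 9.41 in that order. None of 11 fibroblast, 13 nerve and 2 red blood cell probe sets was called by limma in any comparison. The part of these cells in the Ldb3 levels was not tested.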

How the data were processed

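The deposited table holds log2 values made by the authors with RMA from the probe intensities of 12 arrays (Affymetrix mouse expression arrays), as the methods state. The processing notes list MAS5 beside RMA, give no version, and do not tell which of them the table came from. RMA corrects the background, quantile-normalizes the arrays and summarizes the probes of a set, so levels of different probe sets are not compared. Nothing was added before testing. Of 22690 probe sets, 64 controls were left out. Symbols came from the platform annotation, updated through RefSeq (GRCm38.p6), with 20380 probe sets of 1 symbol, 691 of several and 1555 of none. The limma package (3.58.1, R 4.3.3) fitted a mean per genotype to the 12 arrays together (lmFit, eBayes, 9 residual degrees of freedom), with Benjamini-Hochberg adjustment over 22626 probe sets and a threshold of 0.05. Correlations used exact permutations within genotypes (Python 3.11.15, numpy 2.4.6). The fit was tested on simulated data. The precision is limited by 4 arrays a genotype.

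The genes and lists were chosen with earlier results of these data known. Named were all 14 probe sets. Of each muscle list, up to 4 genes with the smallest adjusted p were named among those that passed, or 2 probe sets with the smallest p where none did. The PDLIM family and the myogenic factors were covered in full, and the 5 genes most like Ldb3 were named. Replicate numbers are not said to pair tumors, so no block was used in the main fit. Alternatives changed the scaling, the filter on dim probe sets, the samples, the moderation, the test, the blocks and the threshold, and left out each tumor.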

Additional observations from a re-analysis of the deposited data

Results flagged for a closer look

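In 5 cases a single tumor stood apart from the other 3 of its genotype (Dixon's test for groups of 4). Acta1 was at 7.63 in MT1 and at 4.80 to 5.03 in the other MT tumors. Tnnc2 was at 6.45 in MT1 and at 4.72 to 4.81 in the others. Tnnt3 was at 5.31 in MT1 and at 4.63 to 4.70 in the others. Mylpf was at 6.27 in KO2 and at 5.66 to 5.75 in the other KO tumors. Ldb3 at 1433783_at was at 4.78 in WT2 and at 6.98 to 7.10 in the other WT tumors. Chance marks about 1 in 20 such groups, and over all 22626 probe sets the share was 6.09% in MT, 5.48% in KO and 7.45% in WT tumors.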

How the results depend on the processing

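None of the probe sets of the 10 genes that were tested was called at 0.05 under any alternative, and without MT1 the smallest adjusted p for KO minus WT was that of Tnnc2, 0.083. The filter on dim probe sets gave no member value, since it removed all 14. Of the member differences, 302 kept and 14 turned their direction when the whole-table settings changed, and when 1 tumor was left out 414 kept and 18 turned it. With each array centered, Des 1426731_at KO minus WT was -0.0189. With cyclic loess, Des 1426732_at KO minus WT was 0.0178. With array weights, KO minus WT was 0.0419 for Des 1426732_at, 0.0307 for Mb 1422420_at and 0.0392 for Mb 1451203_at, MT minus WT was 0.019 for Ckm and MT minus KO 0.0219 for Mylpf. With a block for the poly-A control level (high in MT1, MT2 and MT3), MT minus WT was -0.32 for Acta1, -0.37 for Tnnc2 and -0.33 for Myl1, and MT minus KO was -0.11 for Ldb3 1433783_at, -0.26 for Actn2, -0.14 for Ckm and -0.17 for Myl1. With the mean of all probe sets of a gene, r of Ldb3 with Mylpf was 0.0645. The cause was not tested.

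Leaving out 1 tumor gave, for MT minus WT, -0.47 to 0.47 for Acta1, -0.23 to 0.0353 for Ckm, -0.0924 to 0.55 for Myl1, -0.0882 to 0.39 for Mylpf and -0.32 to 0.26 for Tnnc2. For MT minus KO it gave -0.0753 to 0.87 for Acta1, -0.0623 to 0.16 for Actn2, -0.0237 to 0.16 for Ldb3 1433783_at, -0.0868 to 0.0608 for Mb 1422420_at and -0.31 to 0.17 for Mylpf. For KO minus WT it gave -0.0226 to 0.12 for Des 1426731_at and -0.24 to 0.16 for Mb 1451203_at. For r with Ldb3 it gave -0.0229 to 0.14 for Acta1, -0.63 to 0.29 for Ckm, -0.0072 to 0.18 for Myl1, -0.13 to 0.0526 for Mylpf, -0.73 to 0.0202 for Tnnc2 and -0.76 to 0.13 for Tnnt3, and -0.78 to -0.03 for Mb, which was weakest without WT2. The numbers of the tumors do not pair them, and with the replicate number as a block 0 members were called in each comparison.

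Over all probe sets the calls moved more. KO minus WT gave 438 higher and 597 lower in the fit of the report, 396 and 846 with each array centered, 204 and 170 in the fit to 8 tumors, 1488 and 1792 with array weights, 347 and 257 with the dim filter, and 6 and 4 by the methods' t-test. MT minus WT gave 40 and 43 in the fit of the report, 78 and 55 with the dim filter, 18 and 1 with the poly-A block, 5 and 6 in the fit to 8 tumors, 2495 and 2478 with array weights, and 0 by the methods' t-test. MT minus KO gave 2 and 0 in the fit of the report, 24 and 20 with array weights, 13 and 0 with the poly-A block, 3 and 0 with the dim filter, and 0 by the methods' t-test, with the replicate block and in the fit to 8 tumors. Leaving out 1 tumor moved the calls further. KO minus WT gave 87 and 109 without WT3 and 491 and 869 without WT4, with 103 and 166 without WT1, 217 and 235 without KO2, 284 and 343 without KO1, and 229 lower without KO3. MT minus WT gave 399 and 402 without MT4, 228 and 350 without WT4 and 126 and 150 without WT2, but 22 and 23 without KO3, 6 and 5 without MT1, 13 and 8 without MT2, and 3 or 4 and 1 without MT3, WT1 or WT3. MT minus KO gave 112 and 123 without MT4 and 2 or 3 and 0 or 1 otherwise. Of the settings that gave a value, Speg was called for KO minus WT in 22 of 23, Chrnb1 in 22 of 23, Pdlim7 in 23 of 23 at 1417959_at and 15 of 22 at 1428319_at, Srf in 20 of 23, Myl3 in 19 of 21, Tnni2 in 13 of 21, Myh3 in 11 of 22, Cox6a2 in 7 of 22 and Ryr2 in 3 of 22, and Chrnb1 was called for MT minus WT in 15 of 23. The 4 arrays a genotype and dim signals limit what could be seen.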
